A study of Mus musculus with 6 samples.

Results

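The lymphocyte marker genes examined here are 36 genes that mark T cells, natural killer (NK) cells and B cells: 17 genes of T cells, 10 genes of NK cells and of the cytotoxic granule, the kinase gene Jak3, and 8 genes of B cells. They were found as the non-control probes whose transcript accession belongs to 1 of these RefSeq symbols, which gave 46 of the 39429 probes on the array. Liver RNA was compared between 3 samples labelled WT (WT1 to WT3) and 3 labelled Sec15 KO (KO1 to KO3). All came from untreated male mice aged 6 weeks. The labels do not say which Sec15 gene was deleted, in which cells or by which driver, nor that each sample is a separate animal, and WT1 and WT2 carry the same number in their deposited names. The p-values therefore measure how far these samples scatter, and some of that scatter may be technical.

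Lymphocytes recognise antigen through receptor complexes whose signalling chains carry the message into the cell. In T cells the CD3 and zeta chains (Cd3d, Cd3e, Cd3g, Cd247) are phosphorylated by the kinase Lck, the kinase Zap70 then docks on them, and the adaptor Lat spreads the signal. In B cells Cd79a and Cd79b do the work of the CD3 chains, and NK cells read activating receptors and kill with perforin and granzymes. The liver of a mouse is rich in NK cells, other innate lymphocytes and T cells, which lie in the sinusoids, although lymphocyte RNA is a small part of a whole liver extract.

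Values are log2 of the processed signal minus the 75th percentile of the same array, so 0 is the brightness of that percentile, and each probe is compared only with itself. No spot was saturated, and between 64.82% and 70.32% of probes were well above background, the scanner software's flag for a signal clear of its local background. The 3 WT arrays and KO2 were read in 1 scan (scan 1) and KO1 and KO3 in another (scan 2), by the scan record in the file headers. KO2 correlated with the other KO arrays at 0.970 and 0.975 and with WT1 at 0.974 (Pearson, over the genes tested), while KO1 and KO3 correlated at 0.993, so it stood apart from the rest of its group. All 11 hepatocyte markers on the array were well above background on all 6 arrays. The probe for Exoc6, one of the genes that encode Sec15, passed that flag on 1 WT array and no KO array. Its signals overlapped, from -3.99 to -3.775 in WT and from -4.03 to -3.60 in KO. A probe this near background in WT could not show a loss, so whether Exoc6 RNA was lost cannot be read from it. A second Sec15 gene, Exoc6b, fell by 0.53 on the log2 scale on its detected probe (SE 0.15, limma adjusted p = 0.0427), where 12.2% of all genes were called lower. Whether that call holds with single arrays left out or blocked by scan is not given. Where the probes lie relative to the deletion is not stated, so these values do not tell which gene was deleted.

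A probe was tested when 3 or more of the 6 arrays read it well above background, and of several such probes of a gene the brightest was used. Of the 36 members, 26 were tested and 17 of these were well above background on all 6 arrays. The 10 not tested include 7 with no probe well above background on any array: Cd3g, the gamma chain of CD3, Il7r, the interleukin-7 receptor, the NK receptor genes Klrb1c and Ncr1, the NK and T cell factor Eomes, the B cell kinase Blk and the follicular chemokine receptor Cxcr5. Tcf7, a transcription factor of T cells, was well above background on KO3 alone, at -3.68. Gzmb, the gene of granzyme B, was so on WT1 and WT3 and on no KO array, yet its signals overlapped, from -4.21 to -3.82 in WT and from -4.18 to -4.05 in KO. Tnfrsf17, a receptor of plasma cells, was well above background on the same 2 arrays, at -3.90 and -3.59. Several genes usually used to define these cells (Ncr1, Klrb1c and Eomes for NK cells, Cd3g for T cells) were thus near background on every array.

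Of the 26 tested members, 3 were called higher and 7 lower in Sec15 KO by limma (adjusted p under 0.05). Lat, Zap70 and Il2rb rose, and Cd3e, Cd247, Cd4, Cd28, Nkg7, Gzma and Jak3 fell. Across all 22834 genes tested, 17.4% were higher and 12.2% lower, 29.6% in all, against 11.5% and 26.9% of the tested members, 38.5% in all. The members were tested partly because of where they were bright, since Lat passed the filter through the KO arrays alone and Jak3 through the WT arrays alone, so these shares are descriptions. The 3 KO values lay wholly above or below the 3 WT values in 13 members, or 50.0%, and in 50.7% of all genes, a like share. They were all above in 6 members, against 30.6% of all genes, and all below in 7, against 20.1%. The median log2 difference was -0.15 over the tested members and 0.06 over all genes. In RNA from whole tissue, fewer cells of a type and less RNA per cell cannot be told apart.

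These counts moved when single arrays were left out, which also leaves smaller groups. Without KO2, 3 members were higher and 13 lower, but all genes moved too, to 25.1% higher and 22.2% lower. Without WT3 no member was called in either direction by limma, beside 1.49% of all genes higher and 1.21% lower (341 and 276 genes). The members' median difference was then -0.156, against -0.145 on all arrays, so the calls moved and this median hardly did. Without KO3 only Il2rb was called, beside 2.01% and 2.14%. Without KO1 2 members were higher and 1 lower, beside 6.49% and 5.22% of all genes. Without WT2 2 were higher and 2 lower, beside 5.19% and 4.67%, and without WT1 3 and 4, beside 15.4% and 11%. Scan 2 held KO arrays only, so a difference blocked by scan is that of KO2 from the WT mean. Here and below that difference rests on 1 KO array and says nothing of the levels of KO1 and KO3. Its adjusted p comes from a fit of all 6 arrays, so it also uses the scatter between KO1 and KO3. Blocked by scan, 2 were higher, Lat and Il2rb, and 2 lower, Cd3e and Cd4, where 5.06% of all genes were higher and 4.66% lower, 9.73% in all. With each array centred on its median, the median of all genes moved from 0.06 to 0.18, 5121 genes were higher and 2254 lower in place of 3962 and 2790, and 3 members were higher and 4 lower. After cyclic loess the split turned to 2464 higher and 2853 lower genes, with 2 members higher and 8 lower. With no filter on dim probes, Cd3e, Cd247, Cd28, Zap70 and Nkg7 lost their calls (adjusted p from 0.0525 to 0.0653). After normexp background correction, which adds an offset of 50 to every signal and so shrinks the differences of dim probes, with quantile normalisation, 4 called members moved most: Cd247 to -0.44, Lat to 0.41, Jak3 to -0.23 and Il2rb to 0.30, all still called (adjusted p from 0.0212 to 0.0482). The direction of all 10 called members was the same in every alternative that tested them. Most members are dim. When all genes were ranked by brightness into 4 bins, 15 of the 26 members lay in the dimmest bin, with 2 higher and 2 lower, where all genes had a median difference of -0.18, 6.25% were higher and 12.7% lower. The next bin held 3 members, none called, where 11.5% of all genes were higher and 14.2% lower. The third held 4 members with 3 lower, against 20.6% higher and 14.3% lower. The brightest held 4 members, 1 higher and 2 lower, where the median of all genes was 0.25 and 31% were higher and 7.64% lower. The part of this brightness shift in the members' values was not tested.

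**Figure D1:**
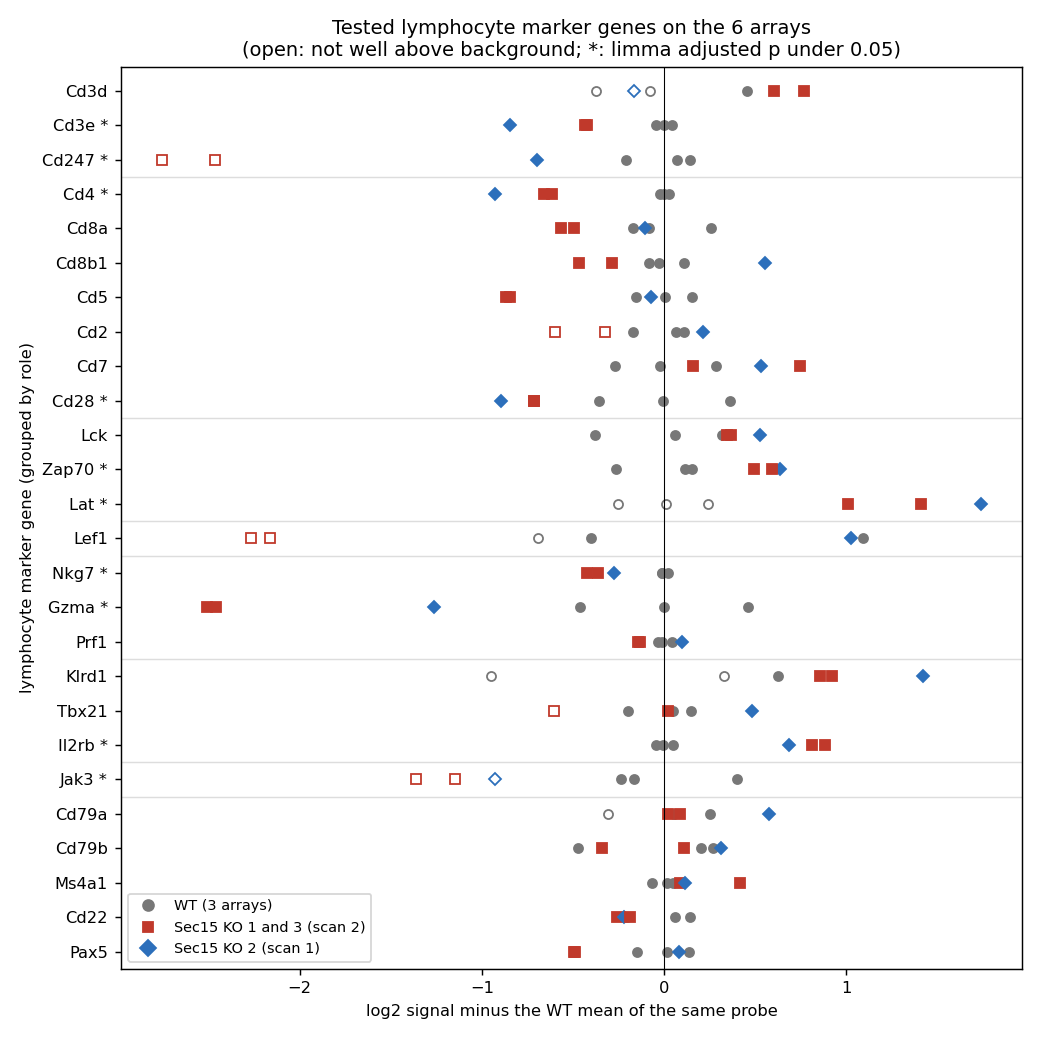
The 26 tested members, 1 per line and grouped by role, as log2 signal minus the WT mean of the same probe (x axis) on each of the 6 arrays, with open symbols where the probe was not well above background and an asterisk where limma called a difference. The squares of KO1 and KO3 lie close together in most lines, and the diamond of KO2 is the highest of the 3 KO arrays in 18 of the 26. No share over all genes is given beside that count.

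Promoter sequence can be shown for called members whose RefSeq start site is the outer end of the gene. Of the 10 called members, 7 have a promoter window in the RefSeq set of assembly GRCm38.p6 (not Cd4, Cd28 and Il2rb), and in 4 the window begins at the outer end of the gene. The 250 bases before the start of these 4 are given below, 5′ to 3′ on the strand of the gene, as 3 genes that fell (Gzma, Nkg7, Jak3) and 1 that rose (Zap70). Capitals mark matches, on either strand, to the STAT half-site pair TTCNNNGAA, searched because the series is titled for STAT3, and to the core letters of lymphocyte factors, TGTGGT for RUNX and AGGAAG for ETS. No marked match overlaps another. The windows are chr13:113100982-113101231 (minus strand), chr7:43436888-43437137 (plus), chr8:71676133-71676382 (plus) and chr1:36761548-36761797 (plus).
Gzma: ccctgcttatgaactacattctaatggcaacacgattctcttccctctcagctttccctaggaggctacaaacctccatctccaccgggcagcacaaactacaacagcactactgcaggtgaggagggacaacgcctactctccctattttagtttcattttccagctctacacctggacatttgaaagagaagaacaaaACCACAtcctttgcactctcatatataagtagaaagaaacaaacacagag
Nkg7: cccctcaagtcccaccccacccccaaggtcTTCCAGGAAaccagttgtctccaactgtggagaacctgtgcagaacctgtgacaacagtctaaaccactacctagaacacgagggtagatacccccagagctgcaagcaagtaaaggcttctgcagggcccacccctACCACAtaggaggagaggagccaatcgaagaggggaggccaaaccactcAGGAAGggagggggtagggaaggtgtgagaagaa
Jak3: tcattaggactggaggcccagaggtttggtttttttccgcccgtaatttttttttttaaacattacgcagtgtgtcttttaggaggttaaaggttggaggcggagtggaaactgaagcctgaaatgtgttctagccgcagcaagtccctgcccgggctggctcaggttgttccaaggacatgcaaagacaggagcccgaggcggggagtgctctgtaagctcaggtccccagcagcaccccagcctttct
Zap70: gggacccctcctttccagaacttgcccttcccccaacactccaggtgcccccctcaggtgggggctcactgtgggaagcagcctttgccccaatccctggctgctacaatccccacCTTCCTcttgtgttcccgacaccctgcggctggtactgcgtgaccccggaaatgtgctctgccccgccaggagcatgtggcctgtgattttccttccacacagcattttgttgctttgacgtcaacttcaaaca
The Gzma window held 1 RUNX match and no other. The Nkg7 window held 1 match to each of the 3 motifs, the Zap70 window 1 ETS match, and the Jak3 window none of the letters searched. Of all 32851 windows of this length, 7.0% held the STAT letters, 14.0% the RUNX letters and 29.5% the ETS letters. For Zap70, RefSeq also holds 2 windows at inner start sites, which are not shown. A match describes letters and is no bound site.

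The T cell receptor complex comes first. Cd3e, the epsilon chain of CD3, read 1.30, 1.26 and 1.35 in WT and 0.87, 0.46 and 0.88 in KO (arrays 1 to 3 of a group in this order throughout). All 3 KO arrays were below the WT arrays and KO2 was the lowest. It was 1.48-fold lower in KO (log2 difference -0.57, SE 0.14, adjusted p = 0.0321). Blocked by scan the difference was -0.84 (adjusted p = 0.0258), but the call ended without any 1 of the arrays other than KO2 (adjusted p from 0.0614 to 0.121), with median centring (adjusted p = 0.102) and with WT1 and WT2 averaged (adjusted p = 0.061).

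Cd247, the zeta chain that carries most of the signalling motifs of the complex, read -2.57, -2.64 and -2.92 in WT and -5.18, -3.41 and -5.47 in KO. KO2 stood between the WT arrays and the other KO arrays, and only KO2 was well above background in KO. The log2 difference of -1.97 (SE 0.54, adjusted p = 0.0412) is therefore against a group mostly not above background, and its size is uncertain. Blocked by scan it was -0.70 (adjusted p = 0.0819), without KO2 -2.61 (adjusted p = 0.00256), and the call ended without any other array (adjusted p from 0.0909 to 0.121) or with WT1 and WT2 averaged (adjusted p = 0.0985). After normexp with quantile normalisation the difference was -0.44 (adjusted p = 0.0285). Cd3d, the delta chain, was well above background on WT1 and KO1 and KO3, with groups that overlapped and a log2 difference of 0.40 (SE 0.32, adjusted p = 0.354). Of the 3 measured chains of this complex 2 were called lower, beside 12.2% of all genes, and 1 was not called. The count was not tested against that share, and Cd3g could not be measured.

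Among the coreceptors, Cd4, which binds MHC class II and brings Lck to the receptor, read 5.06, 5.11 and 5.08 in WT and 4.46, 4.15 and 4.42 in KO. The WT arrays lay within 0.05 of each other, and every KO array was below them. It was 1.66-fold lower in KO (log2 difference -0.74, SE 0.11, adjusted p = 0.0113), and when blocked by scan the difference was -0.93 (adjusted p = 0.024). The call ended without WT3 or KO3 (adjusted p from 0.0534 to 0.0649). A second Cd4 probe, also well above background on all arrays, was far dimmer, with a WT mean of -2.52 against 5.08 on the probe used. It differed by -0.15 and was not called (adjusted p = 0.284 in a fit of all probes). The probes of this gene thus disagree in level and in size of difference, and which reads Cd4 better was not tested. The mean of both differed by -0.44 (adjusted p = 0.0183).

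Cd28, the receptor for the costimulatory ligands CD80 and CD86, read -0.68, 0.04 and -0.33 in WT and -1.04, -1.22 and -1.04 in KO. The KO arrays lay close together below a more spread WT group. It was 1.71-fold lower (log2 difference -0.77, SE 0.19, adjusted p = 0.0329). The adjusted p was 0.0973 when blocked by scan, 0.0611 with median centring, and between 0.0703 and 0.112 without WT2, WT3, KO1 or KO3. After normexp with quantile normalisation the difference was -0.51 (adjusted p = 0.0388).

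The other 5 coreceptor and surface genes did not pass the test. Without KO2, where 22.2% of all genes were lower, 4 of them (Cd5, Cd8a, Cd8b1 and Cd2) were called lower. Cd5, a brake on T cell receptor signalling, read -0.76, -0.46 and -0.60 in WT and -1.48, -0.68 and -1.45 in KO. KO2 lay inside the WT range and the other KO arrays well below it (log2 difference -0.60, SE 0.24, adjusted p = 0.106; adjusted p = 0.00635 without KO2). Cd8a, a chain of the coreceptor for MHC class I, had the same layout, with KO2 inside the WT range at -3.33 (log2 difference -0.39, SE 0.18, adjusted p = 0.143). Its partner chain gene Cd8b1 read -1.94 in KO2, above every WT array, and -2.96 and -2.78 in the other KO arrays, below them, for a difference of -0.07 (SE 0.27). Cd2, an adhesion receptor, differed by -0.24 (SE 0.22) on the probe used and by 0.65 on its second probe, neither called. Cd7 was 0.48 higher (SE 0.21, adjusted p = 0.126), with overlapping groups.

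Downstream of the receptor, 2 of the 3 tested genes of proximal signalling, Lat and Zap70, were called higher, beside 17.4% of all genes. The count was not tested against that share. Lat, the membrane adaptor that Zap70 phosphorylates, read -4.22, -3.99 and -4.48 in WT, not well above background on any of the 3, and -3.22, -2.48 and -2.82 in KO, well above it on all 3. Because its WT level is only a bound, Lat was higher in KO by at least 2.28-fold on this scale (adjusted p = 0.0121), while after normexp with quantile normalisation the log2 difference was 0.41 (adjusted p = 0.0212). The bound sets the KO mean against the higher of the probe's own WT value and the lowest signal that counted as well above background on that array. Lat passed the filter through the KO arrays alone, so its call is no support beyond that detection. Such a pattern, detection on every KO array and no WT one, held for 0.258% of all genes. Blocked by scan the fitted difference was 1.74 (adjusted p = 0.03), and the call ended without WT3 or KO3 (adjusted p from 0.0577 to 0.0614).

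Zap70, the kinase that docks on the phosphorylated chains, read 0.83, 1.25 and 1.21 in WT and 1.59, 1.73 and 1.69 in KO on its brighter probe. The KO arrays lay close together above all WT arrays. It rose 1.49-fold (log2 difference 0.57, SE 0.14, adjusted p = 0.0307). Its second probe read -0.88, -0.77 and -0.84 in WT and 0.16, 0.08 and 0.14 in KO, a difference of 0.96 (adjusted p = 0.00609 in the fit of all probes), so both probes of Zap70 were higher. On the brighter probe the call ended after cyclic loess (0.39, adjusted p = 0.127) and quantile normalisation (adjusted p = 0.059), when blocked by scan (0.64, adjusted p = 0.0958), and without WT2, WT3, KO1 or KO3 (adjusted p from 0.0603 to 0.109). Lck, the kinase that starts the cascade, read -1.10, -1.79 and -1.36 in WT and -1.07, -0.89 and -1.05 in KO. All KO arrays were above the WT arrays, by a narrow margin for WT1, and the difference of 0.41 (SE 0.19, adjusted p = 0.143) did not pass the test.

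Of the T cell factors, Lef1 was the most scattered member. It read -4.26, -2.48 and -3.97 in WT and -5.84, -2.54 and -5.73 in KO, and was well above background on WT2 and WT3 and KO2. WT2 and KO2 were high and the other arrays low, so the groups overlapped (log2 difference -1.13, SE 1.00, adjusted p = 0.402). Without KO2 Lef1 was called lower, at -2.21 (adjusted p = 0.0288).

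**Figure D2:**
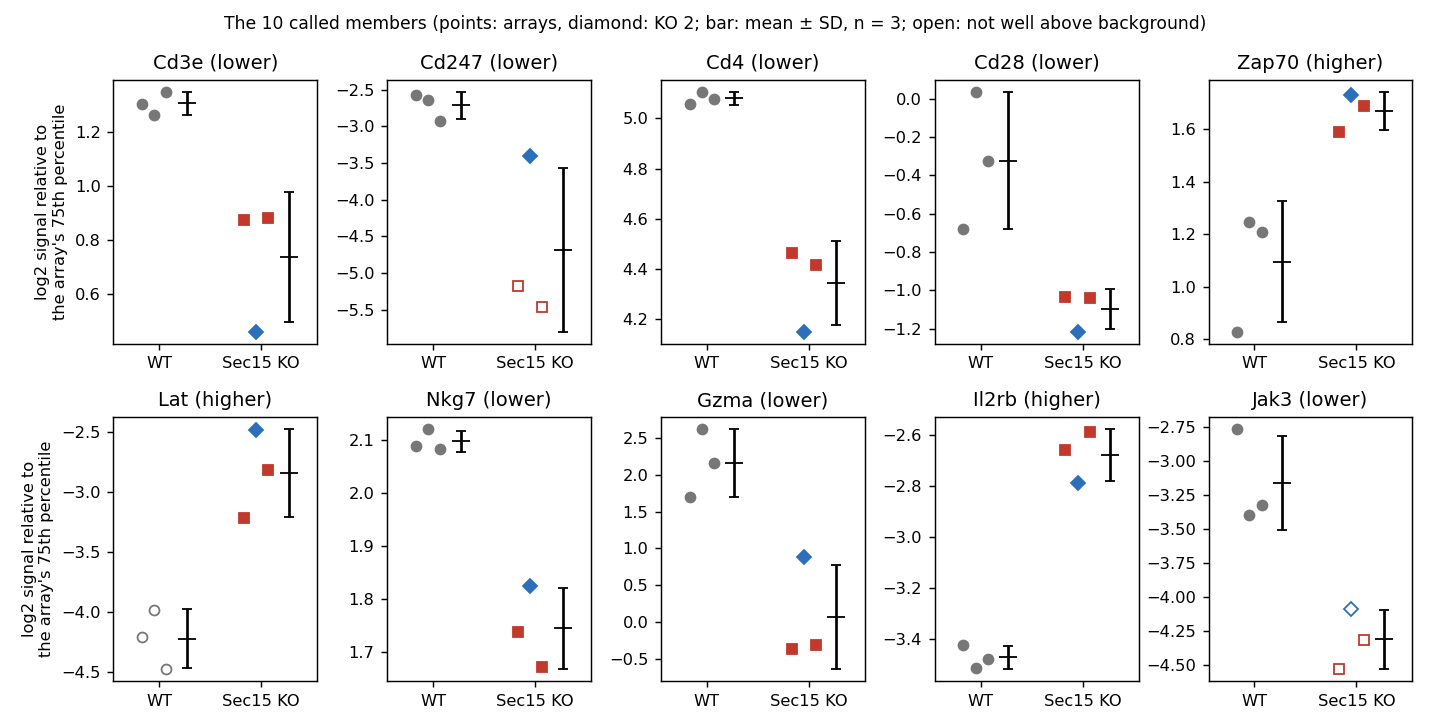
The 10 called members, with log2 signal relative to the array's 75th percentile on the y axis (each panel has its own range), 1 point per array, the diamond for KO2, and the mean ± SD of 3 arrays beside each group. No KO point overlaps a WT point in these panels, and for Cd247, Gzma, Nkg7, Jak3 and Il2rb KO2 is the KO array nearest to WT.

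In the cytotoxic group, Gzma, which encodes granzyme A, a protease of the granules of NK and cytotoxic T cells, read 1.69, 2.62 and 2.15 in WT and -0.35, 0.89 and -0.31 in KO. Every array was well above background, and KO2 stood between the WT arrays and the other KO arrays. Gzma was 4.22-fold lower (log2 difference -2.08, SE 0.41, adjusted p = 0.018). Blocked by scan the difference was -1.26 (adjusted p = 0.0786), and the call ended without WT2, WT3, KO1 or KO3 (adjusted p from 0.0581 to 0.0758).

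Nkg7, a granule membrane protein, read 2.09, 2.12 and 2.08 in WT and 1.74, 1.82 and 1.67 in KO. The WT arrays were nearly equal and all KO arrays lay just below them, a 1.28-fold difference (log2 difference -0.35, SE 0.09, adjusted p = 0.0339). Blocked by scan it was -0.27 (adjusted p = 0.13), with median centring -0.23 (adjusted p = 0.128), after cyclic loess -0.57 (adjusted p = 0.0174), and the call ended without any 1 array other than KO2 (adjusted p from 0.0604 to 0.142). The second Nkg7 probe was not well above background on any array. Prf1, which encodes the pore-forming perforin, was detected on every array and differed by -0.06 (SE 0.11, adjusted p = 0.679), with WT values from -0.19 to -0.11 and KO values from -0.29 to -0.05. Of the 3 granule genes measured, Gzma and Nkg7 were called lower, beside 12.2% of all genes, and Prf1 was not called. The contrast between these genes was not tested.

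Il2rb, the beta chain shared by the receptors for interleukin-2 and interleukin-15 and a marker of NK cells, read -3.42, -3.51 and -3.48 in WT and -2.66, -2.79 and -2.59 in KO. Both groups were tight and did not overlap. Il2rb rose 1.73-fold (log2 difference 0.79, SE 0.10, adjusted p = 0.0075), and when blocked by scan the difference was 0.68 (adjusted p = 0.0318). Of the 6 arrays left out in turn, only the loss of WT3 ended its call (adjusted p = 0.054). After normexp with quantile normalisation the difference was 0.30 (adjusted p = 0.0455). Klrd1, the CD94 subunit of NK receptors, read -3.95, -5.53 and -4.25 in WT and -3.72, -3.15 and -3.65 in KO. All KO arrays were higher and well above background, as was 1 WT array, and the WT arrays were widely spread. The difference of 1.07 (SE 0.43) did not pass the test (adjusted p = 0.106). Tbx21, the factor T-bet, differed by -0.03 (SE 0.28, adjusted p = 0.94).

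Jak3, the kinase that signals from the common gamma chain of cytokine receptors, read -2.76, -3.40 and -3.32 in WT, well above background on all 3, and -4.53, -4.09 and -4.31 in KO, on none. It was at least 1.66-fold lower in KO, by the same kind of bound on the same scale (adjusted p = 0.0156). After normexp with quantile normalisation the log2 difference was -0.23 (adjusted p = 0.0482). Jak3 passed the filter through the WT arrays alone, so its call is no support beyond that detection. Detection on every WT array and no KO one held for 1.98% of all genes. The fitted difference was -0.93 when blocked by scan (adjusted p = 0.0922), and the call ended without WT3, KO1 or KO3 (adjusted p from 0.0523 to 0.0672). A second Jak3 probe was not well above background on any array.

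None of the 5 tested B cell genes passed the test, and their log2 differences ran from -0.30 to 0.23. Cd79a, a signal chain of the B cell receptor, read -4.10, -3.54 and -3.74 in WT and -3.77, -3.22 and -3.71 in KO (log2 difference 0.23, SE 0.21, adjusted p = 0.428). Its partner Cd79b differed by 0.03 (SE 0.26, adjusted p = 0.945). Ms4a1, which encodes CD20, was higher by 0.21 (SE 0.12, adjusted p = 0.228), with all KO arrays above all WT arrays. The lectin Cd22 differed by -0.22 (SE 0.12, adjusted p = 0.19) and the B cell factor Pax5 by -0.30 (SE 0.19, adjusted p = 0.253). Cd22 was called lower after cyclic loess, at -0.49, and after normexp with quantile normalisation, at -0.36, and Pax5 without KO2, at -0.49. Differences of these sizes could not be told from the spread of 3 arrays a group.

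The KO arrays of the 2 scans were set side by side for the members. In 12 of the 26 tested members KO2 was the KO array nearest to the WT mean, and in 5 it lay inside the WT range. In 8 it lay on the opposite side of the WT mean from the average of KO1 and KO3. No shares over all genes are given beside these counts, so they describe the members without setting them apart. Over all genes tested, KO2 correlated with WT1 at 0.974, KO1 at 0.959 and KO3 at 0.962, so KO2 was nearer to WT there too. For Cd247, KO2 was 0.70 below the WT mean and the other KO arrays 2.61 below it on average. For Gzma the corresponding falls were 1.26 and 2.48. Cd3e, Cd4 and Cd28 had the reverse order, with KO2 further from WT, at -0.84, -0.93 and -0.89 against -0.43, -0.64 and -0.72. The median of the 14 tested T cell members relative to the WT mean was -0.52 in KO1, 0.07 in KO2 and -0.37 in KO3, and between -0.02 and 0.11 in WT. The differences of KO2 from the WT mean are the same values as those given above as blocked by scan, and are no second check. Scan 2 held KO arrays only, so for it an effect of the scan and a difference between KO samples cannot be told apart.

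**Figure D3:**
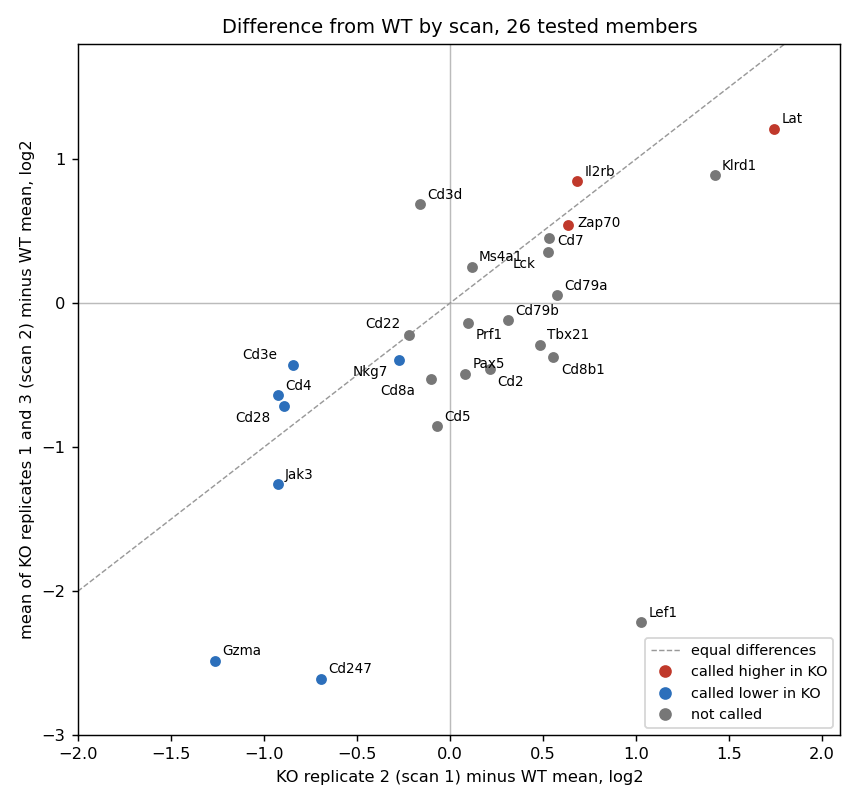
Each point is 1 of the 26 tested members, with the log2 difference of KO2 (scan 1) from the WT mean on the x axis and that of the mean of KO1 and KO3 (scan 2) on the y axis, and the dashed line marks equal differences. The 10 called members lie in the quadrants where both differences have 1 sign, and Cd247, Gzma and Lef1 lie furthest below the line.

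Signals summed over members follow the brightest probe. The sum over the 14 tested T cell members, in multiples of the array's 75th percentile, ran from 40.09 to 42.27 in WT and from 25.25 to 28.9 in KO. Without Cd4 it ran from 6.83 to 7.83 and from 6.85 to 7.48, so the gap between the groups lay in that probe. The second Cd4 probe, at a log2 WT mean of -2.52, did not share its level. The 6 tested NK and cytotoxic members summed to between 8.68 and 11.56 in WT and between 5.12 and 6.75 in KO. Without Gzma they summed to between 5.36 and 5.44 and between 4.31 and 4.89. The sum left follows Nkg7, with log2 means of 2.097 in WT and 1.745 in KO. Prf1, the next brightest, had means of -0.151 and -0.211. No sum without Nkg7 is given, so no fall beyond these 2 probes can be read from the sums.

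Other genes of the same cells and pathways, from lists of textbook markers, also went both ways. The counts in these lists stand beside 17.4% of all genes higher and 12.2% lower, and no list was tested against those shares. Of 40 further T cell genes, 26 were tested, 4 rose and 2 fell, with a median of -0.18. Cd6, a scavenger-type receptor that modulates T cell activation, read 1.76, 2.97 and 2.57 in WT and -0.28, 0.63 and -0.16 in KO, a 5.16-fold fall (log2 difference -2.37, SE 0.38, adjusted p = 0.0122). Its second probe differed by 0.27 and was not called. Themis, a regulator of T cell selection, was 3.33-fold lower (log2 difference -1.73, SE 0.37), with WT values from -1.41 to -0.56 and KO values of -3.14, -1.99 and -3.02. KO2 was the KO array nearest to WT for both genes, as for Gzma. Tox, a nuclear factor of developing and exhausted T cells, rose 3.90-fold (log2 difference 1.96, SE 0.21, adjusted p = 0.00624), and the chemokine Ccl5 rose 1.79-fold (SE 0.16). The other rises, named after their values were seen, were Ptpn22 at 0.65 and Gata3 at 0.94. Of these 6 genes, only Tox kept its call when blocked by scan and without each array in turn, and without WT3 the other 5 lost it.

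Of 30 further NK and cytotoxic genes, 15 were tested, 2 rose and 2 fell, with a median of 0.04. Ifng, the interferon of activated T and NK cells, read -2.48, -3.31 and -3.23 in WT and -5.88, -5.91 and -5.65 in KO, and was detected on every WT array and no KO one. It was at least 1.85-fold lower in KO (adjusted p = 0.00561). It passed the filter through the WT arrays alone, so its call is no support beyond that detection, and after normexp with quantile normalisation the log2 difference was -0.49 in place of -2.81. Cd160, a receptor of NK and intraepithelial T cells, was 4.37-fold lower (log2 difference -2.13, SE 0.36, adjusted p = 0.0135) and lost its call in the scan block (-1.55, adjusted p = 0.0733) and without WT3 or KO3 (adjusted p from 0.0607 to 0.0652). The adaptor genes Tyrobp and Hcst, which myeloid cells also express, rose by 0.69 (SE 0.14) and 0.98 (SE 0.23). Both lost their call in the scan block and without WT2, WT3, KO1 or KO3 (adjusted p from 0.0586 to 0.104).

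Of 38 further B and plasma cell genes, 26 were tested, none rose and 3 fell, with a median of -0.05. Cd74, the invariant chain of MHC class II that all antigen-presenting cells make, was 3.35-fold lower (log2 difference -1.74, SE 0.22, adjusted p = 0.00772) and kept its call in the scan block and without each array. Tnfrsf13b, the receptor TACI, fell by 1.78 on its brighter probe (SE 0.47, adjusted p = 0.0378), and its second probe differed by -0.14. That call ended in the scan block (adjusted p = 0.157) and without any 1 array other than WT1 (adjusted p from 0.0556 to 0.114). Jchain, which joins IgA and IgM, was higher by 0.82 (SE 0.25, adjusted p = 0.0531) and did not pass the test.

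Jak3 and Il2rb belong to the pathway of the common gamma chain cytokines, of which 9 further genes of 15 were tested, with 2 higher and 2 lower on the brightest probe of each. Il15ra, which presents interleukin-15 to cells that carry Il2rb and which hepatocytes and macrophages also express, rose 2.28-fold on its brighter probe (log2 difference 1.19, SE 0.15, adjusted p = 0.00785), while its second probe differed by 0.28 and was not called. Jak1, the partner kinase of Jak3, rose by 0.36 (SE 0.09, adjusted p = 0.0326), and the call ended after cyclic loess (0.14, adjusted p = 0.333). The probes of Il4ra went in opposite directions, with -1.13 on the brighter and 1.21 on the other, so no direction is given for that gene, counted above as lower. Stat6 fell by 0.56 on its brightest probe and its other probes differed by 0.21 and -1.38. Il15ra alone of these 4 kept its call in the scan block and without each array.

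Markers that lymphocytes share with other blood cells, and markers of other liver cells, were read on the same arrays. Beside the counts that follow, 17.4% of all genes were higher and 12.2% lower. In the brightest bin of all genes these shares were 31% and 7.64%. No list was tested against them. Of 20 tested pan-leukocyte genes, 1 rose (Vav1, by 0.59) and 1 fell (Ikzf1, at least 1.19-fold), and Ptprc, which encodes CD45, differed by -0.05 (SE 0.14, adjusted p = 0.789). Ikzf1 passed the filter through the WT arrays alone, so its call is no support beyond that detection. Ikzf1 and Vav1 lost their calls in the scan block and without WT2, WT3 or KO3. Of 9 tested dendritic cell markers, 2 fell and none rose, with H2-Eb1, a chain of MHC class II, lower by 0.55 (SE 0.12). The list's differences ran from -1.56 to -0.01. The lowest, that of Cd209a, was not called (adjusted p = 0.0858), and this gene passed the filter through the WT arrays alone. A second Cd209a probe was not well above background on any array. The list's median over genes, relative to the WT mean, ran from -0.40 to -0.28 on the KO arrays and from -0.10 to 0.07 on the WT arrays. Sums of these lists are given without the brightest probe of each, and for the dendritic cell list ran from 9.22 to 10.66 in WT and from 5.73 to 7.53 in KO. Neutrophil markers rose in 4 of 8 genes, among them S100a8 at 6.57-fold (SE 0.48 on the log2 scale) and Retnlg at 4.55-fold (SE 0.34), and their sums ran from 6.61 to 7.25 in WT and from 8.33 to 15.27 in KO. Macrophage markers rose in 3 of 10, with Marco at 3.38-fold (SE 0.25), and summed to between 23.91 and 24.82 in WT and between 33.62 and 44.95 in KO. Erythroid markers rose in 6 of 9, with Hbb-bs at 9.93-fold (SE 0.28), and summed to between 16.92 and 19.28 in WT and between 41.82 and 56.52 in KO. Endothelial markers rose in 4 of 6 (Vwf by 1.33, SE 0.13) and summed to between 12.03 and 12.61 in WT and between 18.71 and 21.81 in KO. Vwf and Stab2 kept their calls in the scan block and without each array, and Lyve1 and Kdr did not. Kdr rose by 0.41 on its brighter probe, while its second probe differed by -0.285 and was not called. Hepatocyte markers rose in 4 of 11, and of these Fgb alone, higher by 0.68 (SE 0.09), kept its call in the scan block and after cyclic loess, and it lost it without WT3 or KO3 (adjusted p from 0.0506 to 0.0576). Of 5 tested platelet markers Pf4 rose, by 0.90 (SE 0.26), and it lost its call without any 1 array and in the scan block. The 6 erythroid calls held in the scan block and without each array. All 4 neutrophil calls held in the scan block and ended without WT3, and none of the 3 macrophage and 2 dendritic cell calls held in the scan block. Across these lists normexp with quantile normalisation gave smaller differences for dim genes, such as Hbb-bs at 1.65, Retnlg at 0.95, Tox at 1.09, Cd160 at -1.20 and Themis at -0.80, and the calls of Jak1, Stat6, Ikzf1, Batf3, Hnf4a, Tat and Cps1 ended. The part of these other cells in the lymphocyte values was not tested.

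**Figure D4:**
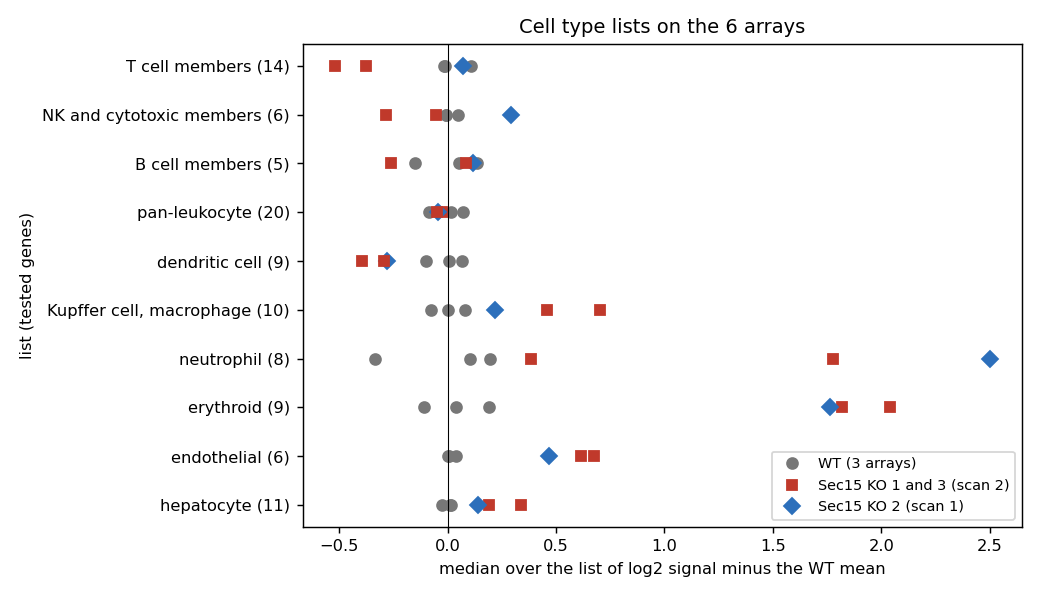
For each list the x axis gives the median over its tested genes (number in brackets) of the log2 signal minus the WT mean, with 1 symbol per array. The KO arrays lie near the WT arrays for pan-leukocyte genes, far above them for erythroid markers, and for T cell and for NK and cytotoxic members KO2 lies apart from KO1 and KO3, as the highest KO array.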

How the data were processed

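Liver RNA from 3 WT and 3 Sec15 KO samples was read on 6 one-colour Cy3 arrays. The deposited intensity values were made with Agilent Feature Extraction 11.0.1.1, per the file headers, whose processed signal is background-subtracted and detrended within an array and not normalised between arrays. Other deposited columns are 0 or 1 flags. Outlier spots (178 to 236 per array) were left out and spots of a probe averaged. Log2 signals minus each array's 75th percentile were used, since the labels give no normalisation. Of 39429 probes, 27057 passed the background flag on 3 or more arrays. Accessions were matched to RefSeq symbols (GRCm38.p6, names alone): 27234 probes had 1 symbol and 12195 none. The brightest probe per gene gave 22834 genes.

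KO was compared with WT by limma 3.58.1 (R 4.3.3) over all genes, with Benjamini-Hochberg adjustment at 0.05. The fit was checked on simulated data. The members and lists were chosen with earlier results of these data known. Every member was named, with up to 4 genes of smallest p per list; others are said to be named later. Alternatives were median centring, quantile, cyclic loess, normexp (offset 50) with quantile, eBayes with trend and robust, a filter on all 6 arrays or none, the mean of a gene's probes, replicate and scan blocks, WT replicates 1 and 2 averaged, and each array left out. The scan 1 arrays alone were added after seeing the data. The number of arrays limits the precision. The result of 1 further gene is not reported here.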

Additional observations from a re-analysis of the deposited data

How the results depend on the processing

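The called members kept their direction throughout, and the counts moved. With each array left out, genes higher in KO ranged from 341 to 5735, genes lower from 276 to 5073, members higher from 0 to 3, members lower from 0 to 13, and the members' median from -0.333 to -0.057. Blocking by scan gave 1156 genes higher and 1065 lower, 2 members lower and a median of 0.107. On the arrays of scan 1 alone, where KO replicate 2 is the lone KO array and is assumed to vary like WT, limma called 0 genes higher and 0 lower (6759 at an unadjusted p under 0.05), 0 members either way, and the median was 0.107. In both settings Cd2 (0.212), Cd3d (-0.163), Cd8b1 (0.551), Lef1 (1.028), Pax5 (0.08), Prf1 (0.098) and Tbx21 (0.485) turned sign, uncalled in each. Both set KO replicate 2 against the WT arrays, so their differences are the same by construction. Cyclic loess gave 2464 genes higher, Cd8b1 0.017 and Tbx21 0.105. Without a filter 2613 genes were higher and 3 members lower. Median centring left 4 members lower, with Cd8b1 at 0.051, Prf1 at 0.06 and Tbx21 at 0.089. With WT replicates 1 and 2 averaged 5 members were higher, adding Lck and Klrd1, with Cd79b at -0.025 and Tbx21 at 0.018. Cd8b1 and Tbx21 read 0.06 and 0.118 with quantile normalisation and 0.011 and 0.048 with normexp, and Cd2 read 0.207 as the mean of its probes. With each array left out in turn, 3 uncalled members changed sign: Cd79b ran from -0.211 to 0.21, negative without WT replicate 2 (-0.211), KO replicate 2 (-0.117) and KO replicate 3 (-0.014). Cd8b1 ran from -0.378, called without KO replicate 2, to 0.133 without KO replicate 1, and was 0.041 without KO replicate 3. Tbx21 ran from -0.289 to 0.255, positive without KO replicate 3 (0.255) and WT replicate 1 (0.043). With the replicate number as a block 4 members were lower and 3 higher, with 2917 genes higher and 2395 lower, and Cd247 (0.0518), Cd28 (0.0693) and Nkg7 (0.0644) went past an adjusted p of 0.05. Same-numbered samples deviated from their group means with correlations of 0.111, 0.11 and 0.016, so the numbers were not taken to pair the samples. Apart from the smaller groups and the wider filter, the cause of these shifts was not tested. The 9 tested members not well above background on all 6 arrays, and the 10 not tested, are measured least well.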
